A study of Mus musculus with 6 samples.

Results

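The 33 genes described here are genes of lipid storage in adipocytes, read in 6 mouse neurofibromas, which are benign nerve tumours that grow from the Schwann cell lineage. They were chosen by name, as the rows of the deposited count table whose symbol is an adipokine, a lipid droplet protein, or an enzyme, carrier or transcription factor of fat synthesis and breakdown. All 33 were found among the 24421 gene symbols of the table. RNA sequencing compared 3 tumours labelled miR155KO_Nf1KO (MiRNC149, MiRNC640 and MiRNC670) with 3 tumours labelled Nf1KO (Nf803, Nf809 and Nf827). All 6 arose in C57BL/6J mice of the genotype Nf1fl/fl; DhhCre, in which a Cre recombinase driven by the Dhh promoter, active in the Schwann cell lineage, removes Nf1, a negative regulator of Ras. The miR155KO_Nf1KO mice also lacked the microRNA miR-155, and no mouse received a drug. Cells of other lineages in the tumour, adipocytes among them, are not the target of DhhCre, and no age is given in the sources used here.

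Adipocytes store fatty acids as triglyceride in lipid droplets. Fatty acids are taken up from blood lipoproteins or made from glucose, joined to a glycerol backbone, held in droplets by coat proteins, and released again by lipases when adrenergic receptors are stimulated. PPARγ and C/EBPα switch on most of this programme, and the mature cell secretes adipokines such as adiponectin and leptin. Peripheral nerves lie in and beside fat, with adipocytes in the epineurium, the outer sheath of a nerve. Several enzymes of fatty acid synthesis are also made by Schwann cells, which build lipid-rich myelin.

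The column totals ran from 13061129 to 16333181 reads. Mir155hg, the host transcript of miR-155, had 5, 3 and 1 reads in MiRNC149, MiRNC640 and MiRNC670, against 57, 66 and 71 reads in Nf803, Nf809 and Nf827, so it followed the labels. By Xist and Y-linked reads MiRNC149, Nf803 and Nf827 were female, and MiRNC640, MiRNC670 and Nf809 were male. Summed over 17 skeletal muscle genes, the level was 16133 CPM (counts per 1000000 reads of the scaled library) in MiRNC670 and 25576 CPM in Nf809, and between 175 and 3357 CPM in the other tumours. The labels do not say that the tumours came from separate animals, so the p-values measure only the spread between these samples. In bulk RNA, fewer adipocytes and less RNA per adipocyte cannot be told apart.

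The lipid storage genes differed widely between tumours of the same group, and most of them shared the order of the tumours, with Plin4, Slc2a4, Lpin1 and Srebf1 among the exceptions. MiRNC640 was highest for 32 of the 33 genes and MiRNC670 second highest for 31. Nf809 was lowest for 27 and MiRNC149 for 4, and these 2 tumours, 1 of each group, were the 2 lowest for 29 genes. Together the 33 genes took 2.496% of all reads in MiRNC640 and 1.14% in MiRNC670, 0.594% in Nf803 and 0.498% in Nf827, but 0.275% in MiRNC149 and 0.212% in Nf809. Within the miR155KO_Nf1KO group the share was thus lowest in MiRNC149, below that of Nf803 and Nf827, and the groups overlapped.

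**Figure D1:**
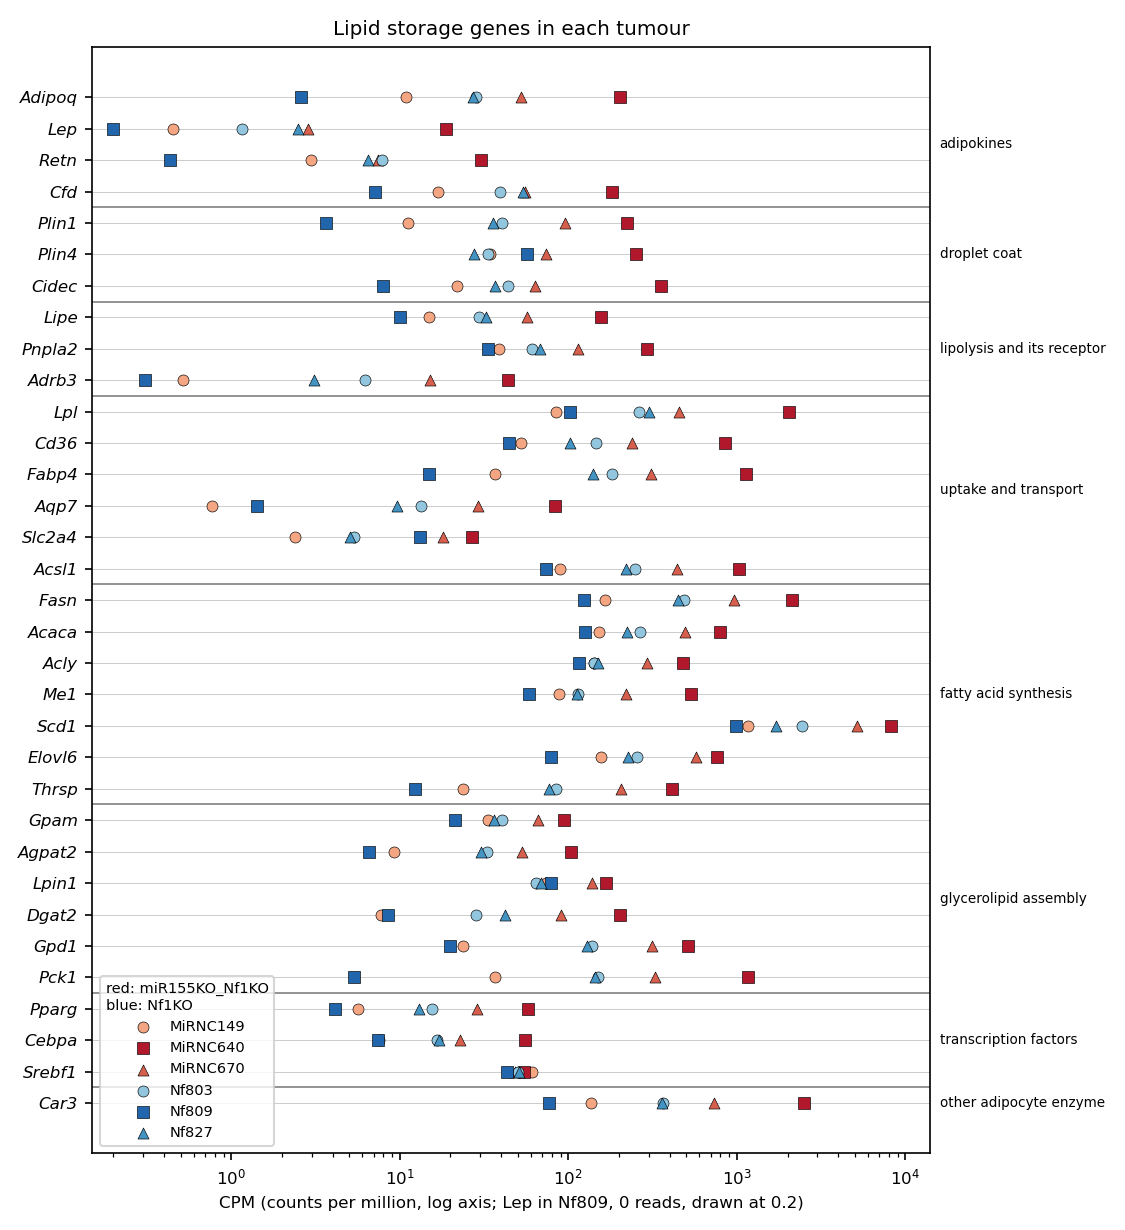
Level of each of the 33 genes in each tumour, in CPM on a log axis, grouped by role; red symbols are miR155KO_Nf1KO tumours and blue symbols Nf1KO tumours. MiRNC640 lies at the right end of 32 rows, and the pale MiRNC149 and dark blue Nf809 symbols are the 2 lowest in 29.

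Among the adipokines, Adipoq, which encodes adiponectin and is made almost only by adipocytes, measured 10.8 CPM in MiRNC149, 201 in MiRNC640 and 52.2 in MiRNC670, against 28.5 in Nf803, 2.60 in Nf809 and 27.2 in Nf827. MiRNC640 stood far above the other 5 tumours, and MiRNC149 lay below both Nf803 and Nf827. The mean level of Adipoq was 88.1 ± 100.2 CPM (SD, n = 3) over the miR155KO_Nf1KO tumours, against 19.5 ± 14.6 CPM (SD, n = 3) over the Nf1KO tumours. The means differed by less than the larger of these SDs. Adipoq had a log2 fold change between groups of 2.18 (SE 1.12, edgeR adjusted p = 0.268). Lep, the satiety hormone leptin, had 277 reads in MiRNC640, 36 in MiRNC670 and 7 in MiRNC149, against 16, 0 and 37 reads in Nf803, Nf809 and Nf827. The 0 reads in Nf809 allow a level of up to 0.185 CPM, taking 3 reads as the limit and counting error only. Leptin reads thus lay mostly in 1 tumour, MiRNC640. Retn, which encodes resistin, measured 2.96 CPM in MiRNC149, 30.5 in MiRNC640 and 7.45 in MiRNC670, against 7.84 in Nf803, 0.433 in Nf809 and 6.49 in Nf827. Cfd, the serine protease adipsin, measured 16.9 CPM in MiRNC149, 181 in MiRNC640 and 55.1 in MiRNC670, against 39.3 in Nf803, 7.17 in Nf809 and 54.0 in Nf827. In both genes MiRNC670 was close to Nf827 and only MiRNC640 stood clear of the Nf1KO tumours.

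The stretches upstream of 3 of the 33 genes are shown because most of the 33 genes share an order of tumours, and C/EBP factors are known regulators of fat genes. Sequences are from RefSeq, build GRCm38.p6, 5′ to 3′ on the strand of the gene, cut to the bases before both the RefSeq and the GENCODE M21 start. Capitals mark matches to TTGCNNAA, a short form of the C/EBP motif, sought on both strands. The Lep stretch is chr6:29059971-29060219 on the plus strand, the Plin1 stretch chr7:79732904-79733026 on the minus strand and the Adipoq stretch chr16:23146286-23146535 on the plus strand.
Lep: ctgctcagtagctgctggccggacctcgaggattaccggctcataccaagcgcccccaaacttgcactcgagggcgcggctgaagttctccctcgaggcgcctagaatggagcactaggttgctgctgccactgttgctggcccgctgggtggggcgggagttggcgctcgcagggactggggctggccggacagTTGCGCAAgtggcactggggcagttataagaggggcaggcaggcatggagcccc
Plin1: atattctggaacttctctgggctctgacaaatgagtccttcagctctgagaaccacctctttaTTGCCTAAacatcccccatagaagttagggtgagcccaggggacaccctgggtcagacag
Adipoq: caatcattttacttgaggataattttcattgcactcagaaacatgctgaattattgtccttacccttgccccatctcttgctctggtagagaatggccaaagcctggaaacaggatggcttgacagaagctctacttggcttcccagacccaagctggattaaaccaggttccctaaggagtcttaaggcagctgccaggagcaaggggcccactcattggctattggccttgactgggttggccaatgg
The match upstream of Lep, TTGCGCAA, starts 55 bases before the RefSeq start and reads the same on both strands, so it is 1 site and not 2. The match shown for Plin1, TTGCCTAA, starts 187 bases before the RefSeq start, and another, TTGCCCAA, starts 58 bases before it, inside the gene as GENCODE draws it. The Adipoq stretch holds no match. Of the 33 genes, 25 had an entry in the RefSeq promoter table, with 35 windows of 250 bases before to 50 bases after a start. The motif was found in 5 of those 35 windows, those of Cidec, Gpam, Lep, Plin1 and Pparg, or 14.3%, against 10.8% of the 32851 windows of all genes. A match describes letters only.

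The droplet coat genes split into 2 patterns. Plin1, the coat protein that controls access of lipases to the droplet, measured 11.1 CPM in MiRNC149, 224 in MiRNC640 and 95.6 in MiRNC670, against 40.4 in Nf803, 3.65 in Nf809 and 35.7 in Nf827, in the order of Adipoq. For Plin1, the log2 fold change of miR155KO_Nf1KO over Nf1KO was 2.05 (SE 1.10), with an edgeR adjusted p of 0.286. Cidec, which fuses droplets into a single large one, measured 21.8 CPM in MiRNC149, 353 in MiRNC640 and 63.2 in MiRNC670, against 43.6 in Nf803, 7.91 in Nf809 and 36.6 in Nf827. Plin4, a coat protein of adipocytes that is also made in muscle, measured 34.3 CPM in MiRNC149, 252 in MiRNC640 and 73.9 in MiRNC670, against 33.6 in Nf803, 56.7 in Nf809 and 27.5 in Nf827. In Nf809 Plin4 was thus the third highest while Plin1 and Cidec were lowest there. The ratio of Plin4 to Plin1 reads was 15.5 in Nf809 and 3.08 in MiRNC149, against 0.769 to 1.12 in the other 4 tumours. Nf809 was also the tumour with the highest summed level of skeletal muscle genes, 25576 CPM. The ratio was 0.773 in MiRNC670, with 16133 CPM of muscle genes, and 3.08 in MiRNC149, with 1584 CPM. The part of muscle in this ratio was not tested. Plin4 had a log2 fold change between groups of 1.61 (SE 0.68, edgeR adjusted p = 0.187).

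The lipolysis genes followed the order of most of the 33 genes. Pnpla2, the lipase that takes the first fatty acid from triglyceride, measured 39.0 CPM in MiRNC149, 293 in MiRNC640 and 115 in MiRNC670, against 61.0 in Nf803, 33.3 in Nf809 and 67.6 in Nf827. Lipe, the hormone-sensitive lipase that acts next, measured 15 CPM in MiRNC149, 156 in MiRNC640 and 56.9 in MiRNC670, against 29.5 in Nf803, 10.1 in Nf809 and 32.6 in Nf827. Both were lowest in Nf809 and second lowest in MiRNC149. Adrb3, the adrenergic receptor of adipocytes that triggers lipolysis, spread much more, from 0.309 CPM in Nf809 and 0.515 CPM in MiRNC149 to 44.1 CPM in MiRNC640. Adrb3 had the largest log2 fold change of the 33 genes, but 24.9% of its exon bases, 15.6% of those of Lipe and 13.0% of those of Gpd1 overlap a gene on the opposite strand. For Adrb3, the log2 fold change of miR155KO_Nf1KO over Nf1KO was 2.64 (SE 1.36), with an edgeR adjusted p of 0.269.

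Genes of uptake and transport held some of the widest spreads. Lpl, the lipase that frees fatty acids from lipoproteins in capillaries, measured 84.3 CPM in MiRNC149, 2035 in MiRNC640 and 455 in MiRNC670, against 264 in Nf803, 102 in Nf809 and 303 in Nf827. The mean level of Lpl was 858 ± 1036 CPM (SD, n = 3) over the miR155KO_Nf1KO tumours, against 223 ± 107 CPM (SD, n = 3) over the Nf1KO tumours. The SD of the miR155KO_Nf1KO group exceeded its mean. Fabp4, the fatty acid binding protein of adipocytes, measured 36.5 CPM in MiRNC149, 1139.6 in MiRNC640 and 311 in MiRNC670, against 182 in Nf803, 15 in Nf809 and 139.7 in Nf827. Cd36, a fatty acid transporter also made by macrophages and endothelium, measured 52.4 CPM in MiRNC149, 849.8 in MiRNC640 and 239 in MiRNC670, against 146 in Nf803, 44.8 in Nf809 and 103 in Nf827. In these 3 genes MiRNC640 was several times higher than MiRNC670, and MiRNC149 lay below Nf803 and Nf827. Aqp7, the channel through which adipocytes release glycerol, ran from 0.773 CPM in MiRNC149 to 83.4 CPM in MiRNC640, a ratio of 108. Acsl1, which activates fatty acids with coenzyme A, measured 88.8 CPM in MiRNC149, 1033 in MiRNC640 and 442 in MiRNC670, against 249.9 in Nf803, 73.6 in Nf809 and 221 in Nf827. Slc2a4, the insulin-responsive glucose transporter GLUT4 of fat and muscle, measured 2.38 CPM in MiRNC149, 26.8 in MiRNC640 and 17.98 in MiRNC670, against 5.37 in Nf803, 13.1 in Nf809 and 5.09 in Nf827. Its level in Nf809 was the highest of the Nf1KO group, unlike that of the other 5 genes of uptake and transport. The ratio of Slc2a4 to Adipoq reads was 5.05 in Nf809 and 0.133 to 0.344 in the other tumours, and here too the part of muscle was not tested.

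Among the enzymes of fatty acid synthesis, Scd1, the desaturase that makes oleic acid, measured 1166 CPM in MiRNC149, 8278 in MiRNC640 and 5142 in MiRNC670, against 2432 in Nf803, 986 in Nf809 and 1714 in Nf827. Per kilobase of exon, Scd1 was the highest of the 33 genes in all 6 tumours, from 201.5 RPKM in Nf809 to 1692 RPKM in MiRNC640, and Car3 was second in all 6, from 26.8 to 879 RPKM. Scd1 has close copies in the genome (Scd2, Scd3 and Scd4), and how reads matching several copies were counted is not given, so its level is uncertain. Fasn, the fatty acid synthase, measured 166 CPM in MiRNC149, 2115 in MiRNC640 and 961 in MiRNC670, against 488 in Nf803, 124 in Nf809 and 445 in Nf827. Acaca, the carboxylase that feeds it with malonyl-CoA, measured 152 CPM in MiRNC149, 796 in MiRNC640 and 491 in MiRNC670, against 266 in Nf803, 125 in Nf809 and 222 in Nf827. The spread was smaller for Acly, which makes cytosolic acetyl-CoA from citrate: 142 CPM in MiRNC149, 476 in MiRNC640 and 294 in MiRNC670, against 142 in Nf803, 116 in Nf809 and 149.3 in Nf827. In Acly the 2 high miR155KO_Nf1KO tumours stood above every Nf1KO tumour and MiRNC149 lay among them. Acly had a log2 fold change between groups of 1.16 (SE 0.39, edgeR adjusted p = 0.107), the smallest adjusted p of the 33 genes. Me1, the malic enzyme that supplies NADPH, measured 88.5 CPM in MiRNC149, 536 in MiRNC640 and 220.1 in MiRNC670, against 114 in Nf803, 58.8 in Nf809 and 112 in Nf827. For Me1, the log2 fold change of miR155KO_Nf1KO over Nf1KO was 1.57 (SE 0.60), with an edgeR adjusted p of 0.149. In Me1 too, MiRNC640 and MiRNC670 stood above the Nf1KO tumours and MiRNC149 among them. Elovl6, a fatty acid elongase, measured 157 CPM in MiRNC149, 762 in MiRNC640 and 576 in MiRNC670, against 254 in Nf803, 79.1 in Nf809 and 226 in Nf827. Thrsp, a nuclear protein that accompanies lipogenesis, ran from 12.2 CPM in Nf809 to 414 CPM in MiRNC640.

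**Figure D2:**
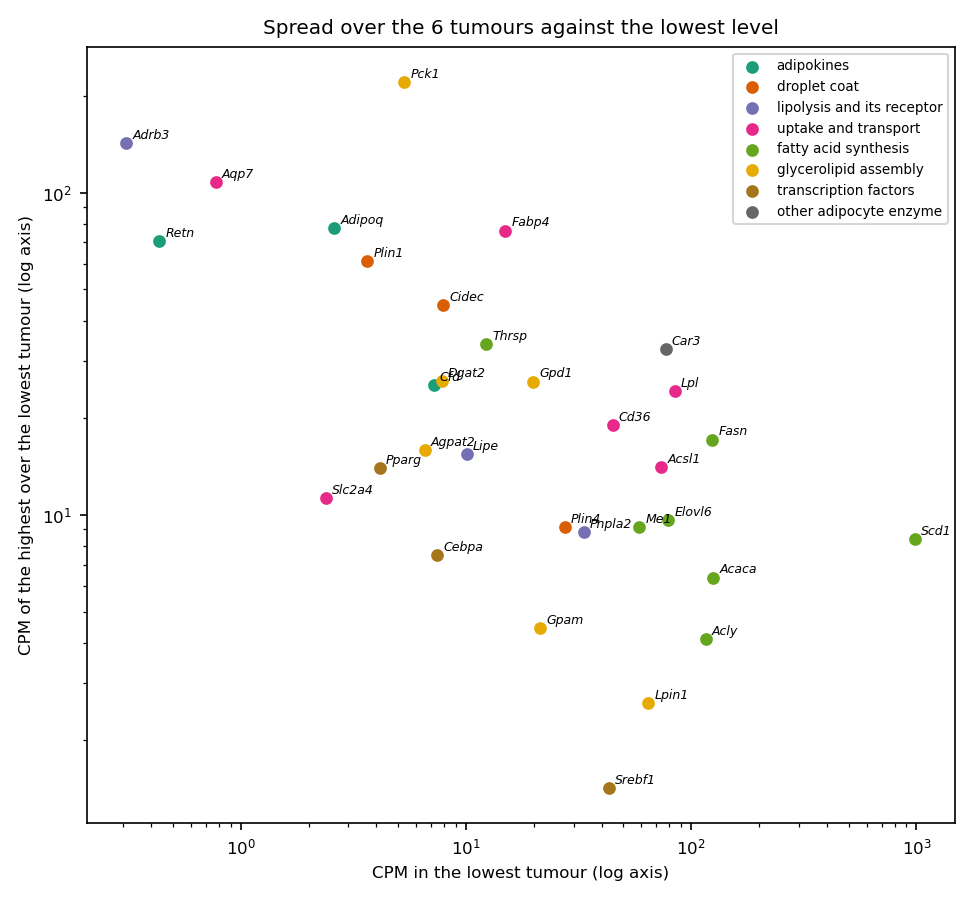
Ratio of the highest to the lowest tumour (y axis, log) against the CPM in the lowest tumour (x axis, log) for 32 of the 33 genes, coloured by role; Lep is left out because it had 0 reads in Nf809. The x value is also the denominator of the ratio, and the ratio runs from 1.42 for Srebf1 to 219.9 for Pck1.

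In glycerolipid assembly, the widest spread was that of Pck1, which makes glycerol phosphate precursors in adipocytes. Pck1 measured 36.8 CPM in MiRNC149, 1169 in MiRNC640 and 326 in MiRNC670, against 151 in Nf803, 5.32 in Nf809 and 145 in Nf827, a ratio of 219.9 between MiRNC640 and Nf809, the largest of the 32 genes with a read in every tumour. The mean level of Pck1 was 511 ± 588 CPM (SD, n = 3) over the miR155KO_Nf1KO tumours, against 100.3 ± 82.3 CPM (SD, n = 3) over the Nf1KO tumours. As in Lpl, the SD of the miR155KO_Nf1KO group exceeded its mean. Gpd1, which makes glycerol 3-phosphate from a glycolytic intermediate, measured 23.6 CPM in MiRNC149, 512 in MiRNC640 and 312 in MiRNC670, against 139 in Nf803, 19.8 in Nf809 and 129 in Nf827. Gpam, which adds the first acyl chain, measured 33.4 CPM in MiRNC149, 94.9 in MiRNC640 and 66.1 in MiRNC670, against 40.6 in Nf803, 21.4 in Nf809 and 36.2 in Nf827. Gpam kept the order of tumours seen in Adipoq, in a narrower range. Agpat2, which adds the second, measured 9.21 CPM in MiRNC149, 104 in MiRNC640 and 53.4 in MiRNC670, against 33.1 in Nf803, 6.55 in Nf809 and 30.5 in Nf827. Dgat2, which completes triglyceride, measured 7.79 CPM in MiRNC149, 202 in MiRNC640 and 90.4 in MiRNC670, against 28.5 in Nf803, 8.47 in Nf809 and 42.3 in Nf827. In Gpd1, Agpat2 and Dgat2 the levels in MiRNC149 and Nf809 were close to each other and well below those of Nf803 and Nf827. Lpin1, a phosphatidate phosphatase also active in muscle, varied least in this role and measured 73.3 CPM in MiRNC149, 168 in MiRNC640 and 139 in MiRNC670, against 64.5 in Nf803, 79.3 in Nf809 and 69.2 in Nf827. Nf803 was its lowest tumour, and MiRNC149 lay within the range of the Nf1KO group. Lpin1 had a log2 fold change between groups of 0.83 (SE 0.29, edgeR adjusted p = 0.113).

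Of the transcription factors, Pparg, the nuclear receptor that drives adipocyte differentiation, measured 5.67 CPM in MiRNC149, 57.8 in MiRNC640 and 28.9 in MiRNC670, against 15.6 in Nf803, 4.14 in Nf809 and 13.1 in Nf827. Cebpa, its partner, measured 7.53 CPM in MiRNC149, 55.7 in MiRNC640 and 22.9 in MiRNC670, against 16.7 in Nf803, 7.42 in Nf809 and 17.0 in Nf827. Pparg followed the order of Adipoq, and Cebpa did so except that Nf827 was just above Nf803. Srebf1, which drives lipogenic enzymes and is made in many cell types, did not, and measured 60.9 CPM in MiRNC149, 54.6 in MiRNC640 and 48.5 in MiRNC670, against 50.2 in Nf803, 43.0 in Nf809 and 50.9 in Nf827. It was highest in MiRNC149, and its highest level was 1.42 times its lowest, the narrowest range among them. Car3, a carbonic anhydrase abundant in adipocytes and in some muscle fibres, measured 136 CPM in MiRNC149, 2518 in MiRNC640 and 736 in MiRNC670, against 363 in Nf803, 76.9 in Nf809 and 358 in Nf827, again in the order of Adipoq.

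Over the 32 genes without a 0 the median ratio of highest to lowest tumour was 16.5, beside 2.02 over the genes tested without a 0. The ratio was at least 10 in 22 of 33 genes (66.7%), counting Lep, and in 8.66% of the genes tested. Relative to Adipoq the composition was not constant. Scd1 gave 380 reads per Adipoq read in Nf809, 108 in MiRNC149 and 41.1 to 98.5 in the other tumours. Lpl gave 39.3 per Adipoq read in Nf809 and 7.80 to 11.1 in the rest. Fabp4, by contrast, stayed between 3.38 and 6.38 in all 6. The Adipoq count in Nf809 was 42 reads, so the ratios there are the least precise.

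Tumours without miR-155 were then compared with those that had it. All 33 had a higher fitted level in the miR155KO_Nf1KO group, but none passed the test between groups (edgeR quasi-likelihood, Benjamini-Hochberg over 15604 genes, called at an adjusted p under 0.05). All 33 passed the filter on low counts. Their log2 fold changes ran from 0.19 to 2.64 with a median of 1.57, beside a median of 0.01 over all genes tested. Adjusted p-values from edgeR ran from 0.107 to 0.480. The called share over all genes was 9.96%, made of 5.22% higher and 4.74% lower in miR155KO_Nf1KO. At an unadjusted p under 0.05 there were 5 of the 33 genes, namely Plin4, Acly, Me1, Lpin1 and Gpam, and 4163 of the 15604 genes tested. DESeq2 called 2 of the 33 higher, Acly with an adjusted p of 0.0173 and Lpin1 with 0.0419. It called higher 7.34% of the 20129 genes given a p-value, whether or not they had an adjusted p. Limma voom with quality weights called 0 of the 33. No gene of the 33 had CPM ranges that did not overlap between groups, whereas 32.6% of all genes tested did.

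The standard errors show the spread behind these values. The median SE of the log2 fold change was 0.86 for the 33 genes and 0.26 for all genes tested. The size of the difference changed most with MiRNC640, and without it the median log2 fold change of the 33 genes was 0.63. Without MiRNC640 and Nf809, a setting added after the data were seen, the median was 0.28 and 6 genes (Lep, Retn, Cfd, Lpl, Agpat2 and Cebpa) were at or below 0. Leaving out MiRNC149 instead gave a median of 2.07 and 5 called genes, Acaca, Acly, Lpin1, Scd1 and Me1, against 5.04% of all genes called higher in that fit. Acly then had a log2 fold change of 1.52 with an edgeR adjusted p of 0.0236.

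**Figure D3:**
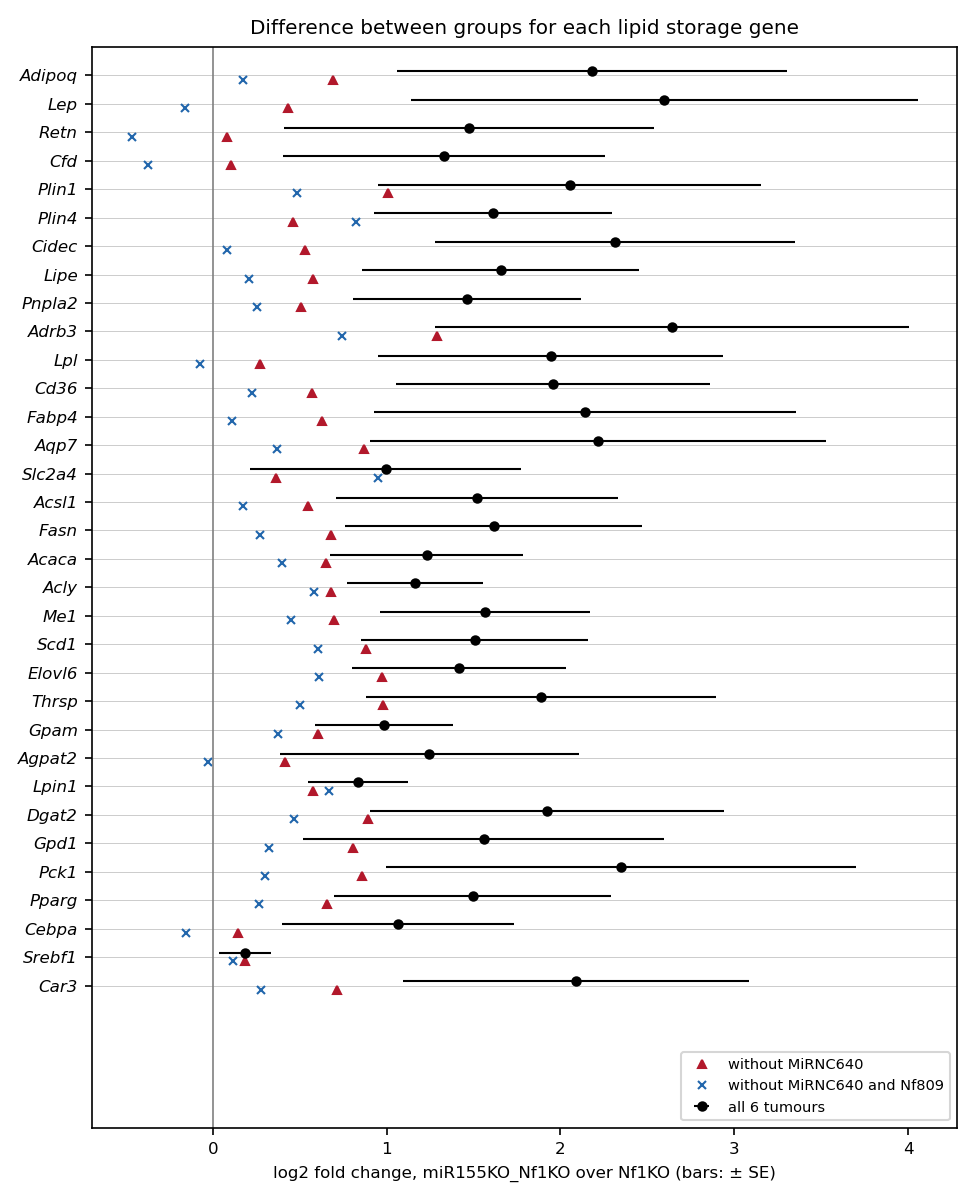
Log2 fold change of each gene, miR155KO_Nf1KO over Nf1KO, from edgeR: black points with SE bars use all 6 tumours, red triangles leave out MiRNC640, and blue crosses leave out MiRNC640 and Nf809. All black points lie between 0.19 and 2.64, and 6 crosses lie below 0.

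For most of the 33 genes the sign of the difference was opposite in the 2 sexes. Among females, MiRNC149 was lower than both Nf803 and Nf827 for 30 of the 33 genes, all but Plin4, Lpin1 and Srebf1. Among males, MiRNC640 and MiRNC670 were both higher than Nf809 for 33 of 33. Both patterns held together in 30 of the 33 genes and in 1602 of the 15604 genes tested. The median log2 difference of the 33 genes was -1.31 in females and 3.33 in males, beside 0.0098 and -0.0090 over all genes. For Gpd1 the difference was -2.50 in females and 4.33 in males.

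A group by sex interaction term in edgeR was added after the data were seen, because MiRNC149 and Nf809 were low. Each of these is the only tumour of its sex in its group, so the spread of the fit comes from the other 4 tumours, and the lone tumours are assumed to vary like them. The term therefore restates the low level of 2 libraries and is no independent evidence of a difference between the sexes, which cannot be told apart from those libraries. As a description, 8 of the 33 genes passed its threshold with a larger difference in males: Gpd1, Elovl6, Thrsp, Plin1, Agpat2, Aqp7, Dgat2 and Pck1. Over all genes 0.135% (21 of 15604) did so in that direction and 46 genes in either. For Gpd1 the term was 6.89 on the log2 scale (SE 0.50), and its median over the 33 genes was 5.13.

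**Figure D4:**
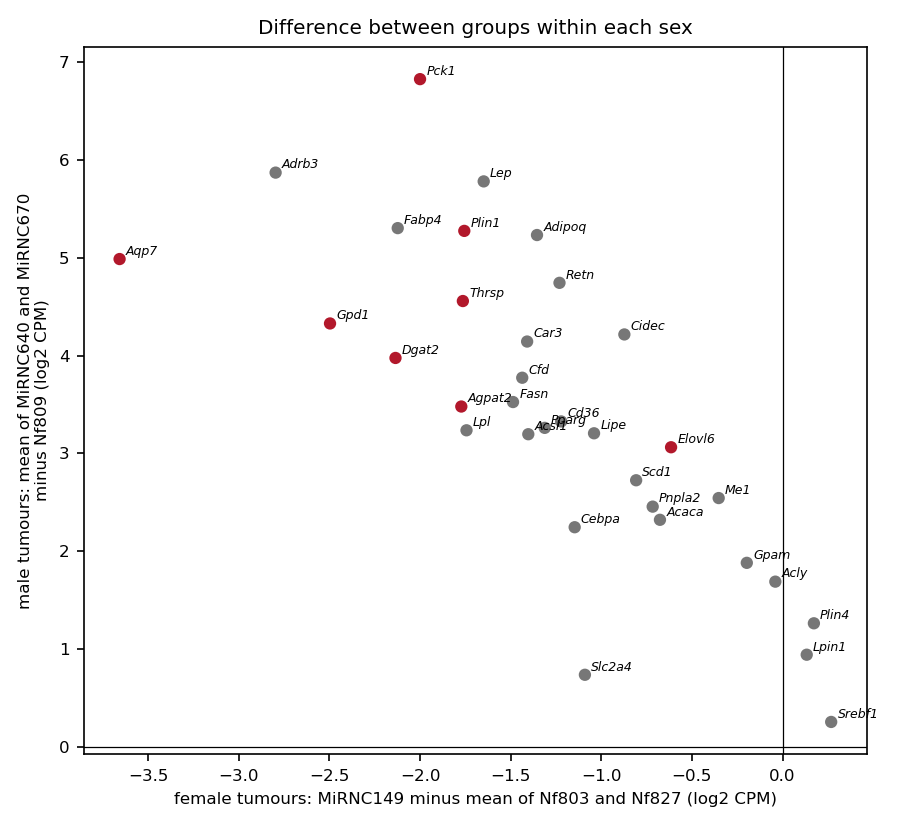
For each gene, the log2 CPM difference in females (x axis, MiRNC149 minus the mean of Nf803 and Nf827) against that in males (y axis, mean of MiRNC640 and MiRNC670 minus Nf809); red points are the 8 genes past the threshold of the interaction term, which rests on 1 tumour in 2 of its 4 cells. Most points lie left of 0 and above 0, and Plin4, Lpin1 and Srebf1 lie right of 0.

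The label of white fat was checked against markers of brown fat and other tissue. The 8 adipocyte-defining genes (Adipoq, Plin1, Cidec, Lep, Cfd, Retn, Adrb3 and Plin4) are all among the 33, so their sum is no separate check. They summed to 98.8, 1304 and 366 CPM in MiRNC149, MiRNC640 and MiRNC670, against 201, 78.8 and 193 CPM in Nf803, Nf809 and Nf827. Plin4, also made in muscle, gave 56.7 of the 78.8 CPM in Nf809. It gave 34.3 of the 98.8 CPM in MiRNC149 and 33.6 of the 201 CPM in Nf803. None of the 8 was at 0 in all tumours. Ucp1, the uncoupling protein that defines brown and beige adipocytes, measured 5.28 CPM in MiRNC149, 371 in MiRNC640 and 217 in MiRNC670, against 107 in Nf803, 2.04 in Nf809 and 111 in Nf827. Cidea, a droplet protein of brown fat, measured 0.451 CPM in MiRNC149, 45.6 in MiRNC640 and 23.0 in MiRNC670, against 9.00 in Nf803, 0 in Nf809 and 8.77 in Nf827. Both were lowest in Nf809 and MiRNC149 and highest in MiRNC640, like the lipid storage genes. Of the other tested brown fat genes, Elovl3, Kcnk3 and Cox8b shared this pattern. Dio2, Cox7a1, Ppargc1a, Prdm16, Zic1 and Otop1 did not, and Zic1 measured 15.5 CPM in Nf809 and 1.42 in MiRNC640. These other genes were named after their values were seen. By Ucp1 and Cidea the counts do not mark the fat in these tumours as white alone, but the brown fat genes did not share a single order. Ucp1 gave 0.488 reads per Adipoq read in MiRNC149, 0.786 in Nf809, 1.84 in MiRNC640 and 3.76 to 4.15 in MiRNC670, Nf803 and Nf827.

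Of 11 tested brown fat genes 1 rose in the miR155KO_Nf1KO group by edgeR, near the 5.22% called higher over all genes: Ppargc1a, a coactivator of mitochondrial genes that is made in many tissues, with a log2 fold change of 0.78 (SE 0.18, adjusted p 0.0408). The median log2 fold change of the 11 genes was 0.90, and 9 were positive. Of 9 tested genes of fat progenitors and the stroma around them, 3 fell and none rose, with a median log2 fold change of -0.91. They were Icam1, an adhesion molecule also made by endothelium and leukocytes, with a log2 fold change of -1.87 (SE 0.26, edgeR adjusted p 0.0201), Fap, a protease of fibroblasts, with -0.92, and Dpp4, a peptidase of early progenitors, with -1.83. The summed progenitor level was 449 to 521 CPM in the 3 miR155KO_Nf1KO tumours and 851 to 979 CPM in the 3 Nf1KO tumours. This sum thus did not follow the order of the lipid storage genes. Pdgfra and Ebf2, neither called by edgeR, gave 300 and 314 of the 979 CPM in Nf809. Pdgfra overlapped between groups, with 175 CPM in MiRNC149 and 128 CPM in Nf827. Zfp423 was the 1 tested gene of this list with a positive log2 fold change, 0.61. These 3 genes were named after their values were seen.

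Marker genes of some other cell types also differed between the groups. Of 18 tested myelin genes 11 rose and 0 fell by edgeR, among them Drp2, Ugt8a, Prx and Cldn19, all of myelinating Schwann cells. The median log2 fold change of the 18 was 1.32. Drp2 measured 1039 CPM in MiRNC149, 1587 in MiRNC640 and 1077 in MiRNC670, against 309 in Nf803, 317 in Nf809 and 373 in Nf827, with a log2 fold change of 1.89 (SE 0.19, edgeR adjusted p 0.0186). The summed myelin level was 11843, 23741 and 16023 CPM in MiRNC149, MiRNC640 and MiRNC670, against 7788, 6575 and 6787 CPM in the Nf1KO tumours. Myelin was therefore also highest in MiRNC640, but MiRNC149 lay above every Nf1KO tumour in myelin and below 2 of them in fat. Of 16 macrophage genes 6 fell and none rose by edgeR, among them Itgam, Adgre1, Mrc1 and Csf1r, with log2 fold changes from -2.44 for Itgam to -1.48 for Mrc1 and a median over the 16 of -1.56. The summed macrophage level was 693 to 1472 CPM in the miR155KO_Nf1KO tumours and 1653 to 2910 CPM in the Nf1KO tumours. Without MiRNC670, Nf803 or Nf827 edgeR called 0 genes in the whole table, so no call of the progenitor, myelin, macrophage or brown fat genes holds in those 3 fits. Of 17 skeletal muscle genes edgeR called 0, with 0 at an unadjusted p under 0.05 and 0 by DESeq2 or voom, and a median log2 fold change of -0.14. The part of these tissues in the levels of the lipid storage genes was not tested.

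**Figure D5:**
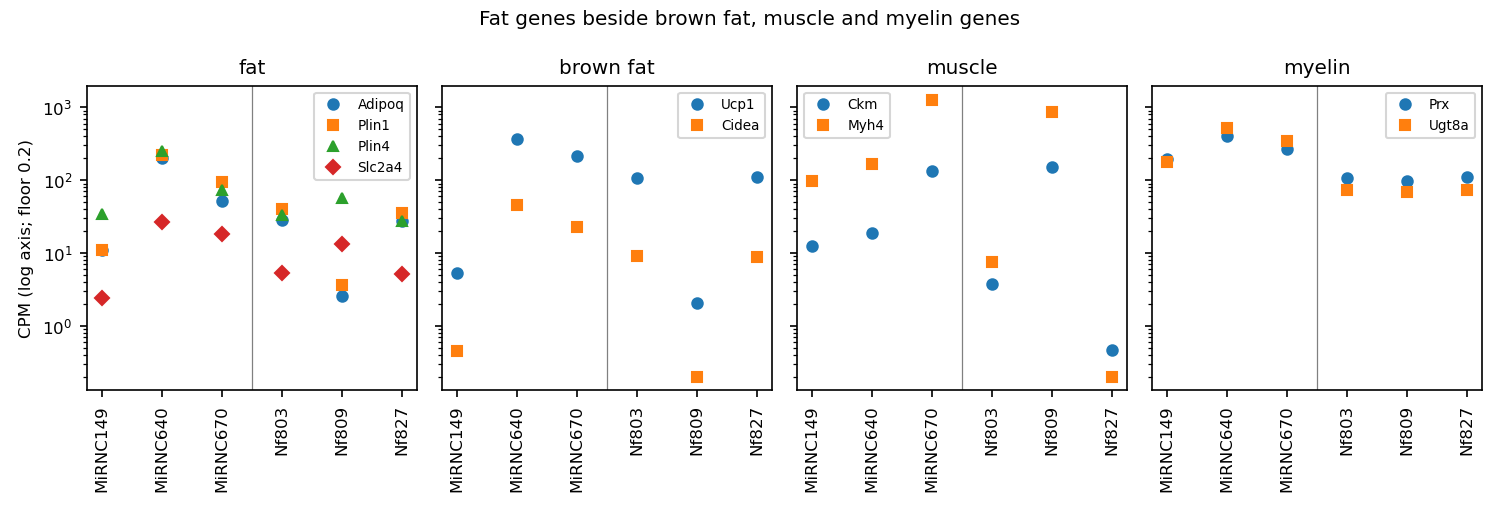
CPM (log axis, values under 0.2 drawn at 0.2) of 4 of the 33 genes and of brown fat, muscle and myelin genes in each tumour; the vertical line separates the groups. Ucp1 and Cidea are low in MiRNC149 and Nf809 like Adipoq and Plin1, Ckm and Myh4 are highest in MiRNC670 and Nf809, and the myelin genes are higher in all 3 miR155KO_Nf1KO tumours.

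A list of 66 further genes of lipid storage had a smaller median. Of the 63 tested, 51 were higher in the miR155KO_Nf1KO group by fitted level, and the median log2 fold change was 0.52. By edgeR 5 rose and 1 fell, a share near the 9.96% called over all genes. DESeq2 called 12 and voom 6, and both also called more genes than edgeR over the whole table. Aspa, which releases acetate from N-acetylaspartate, measured 187 CPM in MiRNC149, 212 in MiRNC640 and 176 in MiRNC670, against 121 in Nf803, 109.7 in Nf809 and 108 in Nf827, with a log2 fold change of 0.76 (SE 0.12, edgeR adjusted p 0.0226). Scd2, the desaturase that predominates in nervous tissue, measured 1516 CPM in MiRNC149, 1593 in MiRNC640 and 1615 in MiRNC670, against 1135 in Nf803, 1019 in Nf809 and 949.5 in Nf827, with a log2 fold change of 0.61 (SE 0.12, adjusted p 0.0277). Neither followed the tumour order of Adipoq, and in both MiRNC149 was above every Nf1KO tumour. Mest, a protein tied to fat cell size, had a log2 fold change of 0.91 and an edgeR adjusted p of 0.0228. Sncg, a synuclein of adipocytes and peripheral neurons, had 1.76 and 0.0277. The fifth gene that rose was Tusc5, a partner of GLUT4 trafficking, with a log2 fold change of 1.81, and the one that fell was Lpin2, a relative of Lpin1, with -0.70, both named after their values were seen. Tusc5 measured 330 CPM in MiRNC149, 333 in MiRNC640 and 450 in MiRNC670, against 75.2 in Nf803, 178 in Nf809 and 65.5 in Nf827. In Mest, Sncg and Tusc5 too, MiRNC149 was above every Nf1KO tumour, unlike in Adipoq. Without MiRNC640, MiRNC670, Nf803 or Nf827 none of the 63 was called, and 0 to 142 genes were called in the whole table in those fits.

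Of the 63 genes, 14 (22.2%) had MiRNC640 highest and MiRNC149 and Nf809 as the 2 lowest, against 29 of the 33 genes and 3.26% of all genes tested, and the rest did not. Acacb, Mlxipl and Adig are examples of the 14. Acacb, the second acetyl-CoA carboxylase, measured 19.5 CPM in MiRNC149, 230.3 in MiRNC640 and 119 in MiRNC670, against 49.1 in Nf803, 25.3 in Nf809 and 48.7 in Nf827. Mlxipl, the glucose-responsive factor ChREBP, measured 9.66 CPM in MiRNC149, 78.3 in MiRNC640 and 63.8 in MiRNC670, against 28.2 in Nf803, 11.8 in Nf809 and 23.4 in Nf827. Adig, a small adipocyte protein, measured 0.579 CPM in MiRNC149, 10.9 in MiRNC640 and 2.61 in MiRNC670, against 1.52 in Nf803, 0.433 in Nf809 and 2.01 in Nf827. Cebpd, a C/EBP factor of early adipogenesis and of inflammation, had another order and measured 27.4 CPM in MiRNC149, 4.26 in MiRNC640 and 6.57 in MiRNC670, against 12.6 in Nf803, 27.8 in Nf809 and 14.1 in Nf827, highest in Nf809 and lowest in MiRNC640. Plin2, the coat protein of droplets in most cell types, varied less, from 27.9 CPM in MiRNC149 to 94.2 CPM in MiRNC640. These 5 genes were named after their values were seen, and none was called by edgeR.

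Outside the 33 genes, 12946 expressed genes were ranked by how closely their log2 CPM followed the mean of the adipocyte-defining genes over the 6 tumours. The 10 closest were Mgst1, Tst, Pde3b, Galm, Sox7, Tmem179, Pfkfb3, Cmbl, Pcsk4 and Tspan12, with Pearson r from 0.987 to 0.997, given as a description over 6 libraries that share depth and composition. Mgst1, a membrane glutathione transferase, measured 11.7 CPM in MiRNC149, 90.03 in MiRNC640 and 29.4 in MiRNC670, against 23.4 in Nf803, 6.18 in Nf809 and 22.0 in Nf827. Pde3b, which is also on the list of further lipid storage genes, is the phosphodiesterase by which insulin restrains lipolysis, and measured 57.5 CPM in MiRNC149, 269 in MiRNC640 and 115 in MiRNC670, against 101 in Nf803, 41.6 in Nf809 and 91.5 in Nf827. Pfkfb3, which raises glycolytic flux, measured 57.3 CPM in MiRNC149, 222 in MiRNC640 and 135 in MiRNC670, against 82.7 in Nf803, 43.5 in Nf809 and 87.7 in Nf827. Mgst1 and Pde3b repeated the order of Adipoq, Pfkfb3 did so with Nf803 and Nf827 exchanged, and all 3 had a narrower range. None of the 10 was called between groups by edgeR (adjusted p from 0.205 to 0.382). They were chosen for following genes of which none was called, so the shared order and the absence of calls are no separate result.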

How the data were processed

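RNA was measured in 6 neurofibromas, 3 per group, and the sample titles gave the groups. RNA extraction used an RNeasy Plus Micro kit and library preparation a Nextera XT kit, per the labels' protocols. The authors deposited raw whole-number read counts per gene symbol in a single table. The submitters' processing notes name mm10, HISAT2 2.0.5 and featureCounts 1.5.2. Not given in the sources used here are the annotation, whether counting used strand, and how reads with several matches were treated. Of the 33 genes, 10 share exon bases with another gene in GENCODE M21, and 3 (Adrb3, Lipe and Gpd1) share at least 10% of them with a gene on the opposite strand, so those reads cannot be assigned.

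In R 4.3.3, genes were filtered with filterByExpr (counts of at least 10, totals of at least 15), scaled by TMM and fitted with edgeR 4.0.16 (two-sided quasi-likelihood test). The model held only the group, and p-values were adjusted by Benjamini-Hochberg over all 15604 tested genes. CPM are counts per 1000000 reads of the TMM-scaled library, RPKM are CPM per 1000 exon bases in GENCODE M21, and log2 CPM used a prior count of 2. Replicate tumours differed by at least 23.2 times the Poisson variance, so none was counted as a repeat. The fit was tested on simulated counts. The alternatives used DESeq2 1.42.0 and limma 3.58.1, other scalings, no filter, sex as a covariate and left-out tumours. The members, the 10 other gene lists and the tests were chosen with earlier results of these data known. Of these lists, the adipocyte-defining genes are all members. Every member is named. From each other list up to 4 called genes with the smallest p are named, and the 10 genes most like the adipocyte-defining genes with a mean log2 CPM of at least 1, leaving out members and predicted genes. Ucp1, Cidea, Ckm and Myh4 are named as defining markers of their tissues, and other genes outside this rule are marked. Of the listed symbols, 5 were matched through an older symbol, and 1 of these was a member and was left out of the other list.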

Additional observations from a re-analysis of the deposited data

Results flagged for a closer look

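The direction of the difference between groups was opposite in the 2 sexes for most of the lipid storage genes. For 30 of the 33 genes, the female miR155KO_Nf1KO tumour (MiRNC149) was lower than both female Nf1KO tumours while both male miR155KO_Nf1KO tumours were higher than the male Nf1KO tumour (Nf809). The same held in 1602 of the 15604 genes tested. In edgeR a group by sex term, added after MiRNC149 and Nf809 were seen to be low, passed its threshold for 8 of the 33. Over all genes tested 0.135% passed it with a larger difference in males, the direction of these 8. MiRNC149 and Nf809 are each the only tumour of their sex in their group and had the lowest shares of reads from the 33 genes, so the term restates their levels, and sex cannot be told apart from these 2 libraries.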

How the results depend on the processing

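Over 14 settings, 13 planned and 1 added after the data were seen, the fold changes of the 33 genes kept their direction and their side of the threshold in 448 cases, passed it in 7 and changed sign in 7. The sign changes were Lep -0.16, Retn -0.47, Cfd -0.37, Lpl -0.072, Agpat2 -0.026 and Cebpa -0.15 without MiRNC640 and Nf809, and Slc2a4 -0.11 with sex as a covariate. Mgst1 (-0.15), Pde3b (-0.16) and Cmbl (-0.13) also changed sign without MiRNC640 and Nf809. Genes of the 33 called higher numbered 0 in edgeR, 2 in DESeq2 and 0 to 5 when 1 tumour was left out, the 5 without MiRNC149. In that fit 5.04% of all genes were called higher. The median log2 fold change ran from 0.63 to 2.07 when 1 tumour was left out and was 1.01 with voom or with sex as a covariate. All genes called numbered 1554, or 2918 by DESeq2, 2675 by voom and 0 to 2242 when 1 tumour was left out. That count was 0 without MiRNC670, Nf803 or Nf827 and 142 without MiRNC640, so the absence of calls among the 33 genes in those fits says little about them. Further lipid storage genes called numbered 6, or 12 by DESeq2, 2 without MiRNC670 and Nf809, and 0 to 11 when 1 tumour was left out. Fits with 1 tumour fewer still held 2 tumours in the smaller group. The other named genes kept their call in 294 cases and lost it in 81. No paired analysis was possible because the groups share no replicate number. Low counts limit Lep, Adrb3, Retn and Aqp7 in Nf809 and MiRNC149, where intervals would cover counting error only.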

Other observations

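Markers of 3 other cell types that a nerve tumour can hold were read from the same fit. Of 13 endothelial genes edgeR called 0, with 1 at an unadjusted p under 0.05, 1 called by DESeq2 and 1 by voom, and their summed level ran from 255 to 466 CPM, highest in MiRNC640, with a median log2 fold change of 0.39. Of 8 mast cell genes edgeR called 0, with 0 at an unadjusted p under 0.05 and 0 by DESeq2 or voom, and their summed level was 50.2 CPM in Nf809 and up to 101 CPM in Nf803, with a median log2 fold change of -0.26. Of 4 tested mesothelial genes edgeR called 1 higher, Wt1, a transcription factor of mesothelium and other tissues, beside 5.22% called higher over all genes tested. Wt1 had a log2 fold change of 4.66 (edgeR adjusted p 0.0212). Its level was 1.93 to 4.73 CPM in miR155KO_Nf1KO against 0.0618 to 0.218 CPM in Nf1KO. The Nf1KO level rested on only 3, 1 and 1 reads in Nf803, Nf809 and Nf827. Msln, Krt19 and Lrrn4, named here to complete the 4, were not called. Their log2 fold changes were -0.81, 0.71 and 1.55.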
